A study of Mus musculus with 2 samples.

Results

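The 10 genes Pou5f1, Sox2, Nanog, Esrrb, Klf2, Klf5, Tfcp2l1, Zfp42, Tbx3 and Sall4 encode transcription factors that hold mouse embryonic stem cells in the naive pluripotent state. Their messenger RNA was followed here through every probe set on the array that the platform annotation assigns to exactly 1 of these symbols. That rule found 21 probe sets among 34945 with 1 symbol and 45101 in all. A probe set is a group of short oligonucleotides that reports 1 stretch of a transcript, and 5 of the 10 genes had a single probe set while Tbx3 had 5.

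The cells were E14, an established line of mouse embryonic stem cells, kept at low passage on gelatin in serum with leukemia inhibitory factor (LIF). They carried a lentivirus that expressed either a non-targeting shRNA (shCtrl) or shSin3a-1, an shRNA against Sin3a, and RNA was collected once puromycin selection was over. SIN3A is the scaffold of a histone deacetylase complex and has been found in complexes with NANOG. The question put to the arrays is how transcript levels change once Sin3a is depleted. Each group was 1 array and the knockdown used a single shRNA, so no difference here has a replicate check, and no p-value or standard deviation over samples can be given. The labels name no clone and no time between infection and collection.

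Naive pluripotency rests on a small network of factors that bind each other's regulatory DNA. POU5F1 (OCT4) and SOX2 bind side by side on a joined DNA element, NANOG occupies many of the same sites, and ESRRB, the Kruppel-like factors KLF2 and KLF5, TFCP2L1 and TBX3 connect this core to LIF and WNT signalling. ZFP42 (REX1) is a zinc finger protein widely used as a marker of the naive state, and SALL4 is a spalt-type zinc finger protein that helps to keep Pou5f1 active.

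The joined element can be seen in the Nanog promoter. RefSeq promoter windows of build GRCm38.p6, from 250 bases before to 50 bases after a transcript start, were available for 7 of the 10 genes (10 windows, since Pou5f1, Nanog and Esrrb each had 2). They were searched on both strands for the SOX core CATTGT, for the first 7 letters of the octamer bound by OCT factors (ATGCAAA), for the whole octamer ATGCAAAT, and for CATTGT and ATGCAAA joined with 1 base between them. The shorter motifs are contained in the longer ones. The stretches below are shown because they place these letters in 3 of the genes whose signals are described next. Capitals mark the joined element in Nanog, the octamer in Zfp42 and the 7 letters of the octamer in Sox2, each with up to 30 flanking bases, written 5′ to 3′ on the strand of the gene.

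Nanog, chr6:122707384-122707457, plus strand, 105 to 32 bases before the start: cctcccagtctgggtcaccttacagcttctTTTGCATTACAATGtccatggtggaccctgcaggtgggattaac
Zfp42, chr8:43307158-43307225, minus strand, 216 to 149 bases before the start: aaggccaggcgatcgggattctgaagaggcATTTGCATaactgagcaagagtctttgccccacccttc
Sox2, chr3:34649866-34649932, plus strand, 129 to 63 bases before the start: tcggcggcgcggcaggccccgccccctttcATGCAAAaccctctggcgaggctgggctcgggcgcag

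The joined element reads on the opposite strand in Nanog and lay 75 to 62 bases before the start of one window and 151 to 138 before that of the other. In exactly these letters it was present in 2 of 32851 windows (0.00609%), and both were the overlapping windows of Nanog. The whole octamer stood in 570 windows (1.74%), among them that of Zfp42, 186 to 179 bases before the start. Its first 7 letters were found in 1520 windows (4.63%). By gene they were in 3 of the 7 (Sox2, Nanog and Zfp42), beside 5.24% of all 27025 genes with a window. The SOX core was in 4129 windows (12.6%) and also in 3 of the 7 genes (Pou5f1, Nanog and Esrrb), beside 14.3% of all genes. These matches are letters in a window, and binding was not measured.

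The knockdown was visible in the array that carries its label. The 3 probe sets of Sin3a had signals of 3072, 1919 and 830.0 in shCtrl and of 534, 361 and 249.5 in shSin3a-1, so that 17.4%, 18.8% and 30.1% of the control signal remained. Signals are MAS5 intensities, scaled by the authors so that both arrays have a trimmed mean of 500, and this scaling was kept. A probe set was kept when its signal reached the 60th percentile of all probe sets on at least 1 array (130.6 in shCtrl and 126.0 in shSin3a-1), and values below the 40th percentile (46.8 and 41.7) were set to it. Differences are log2 values, shSin3a-1 minus shCtrl, in which 1 stands for 2-fold. Centring each array on its median instead would add 0.11 to every log2 difference, so a value between -0.11 and 0 has no settled sign. Of the 21 probe sets, 16 were kept and represented all 10 genes.

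**Figure D1:**
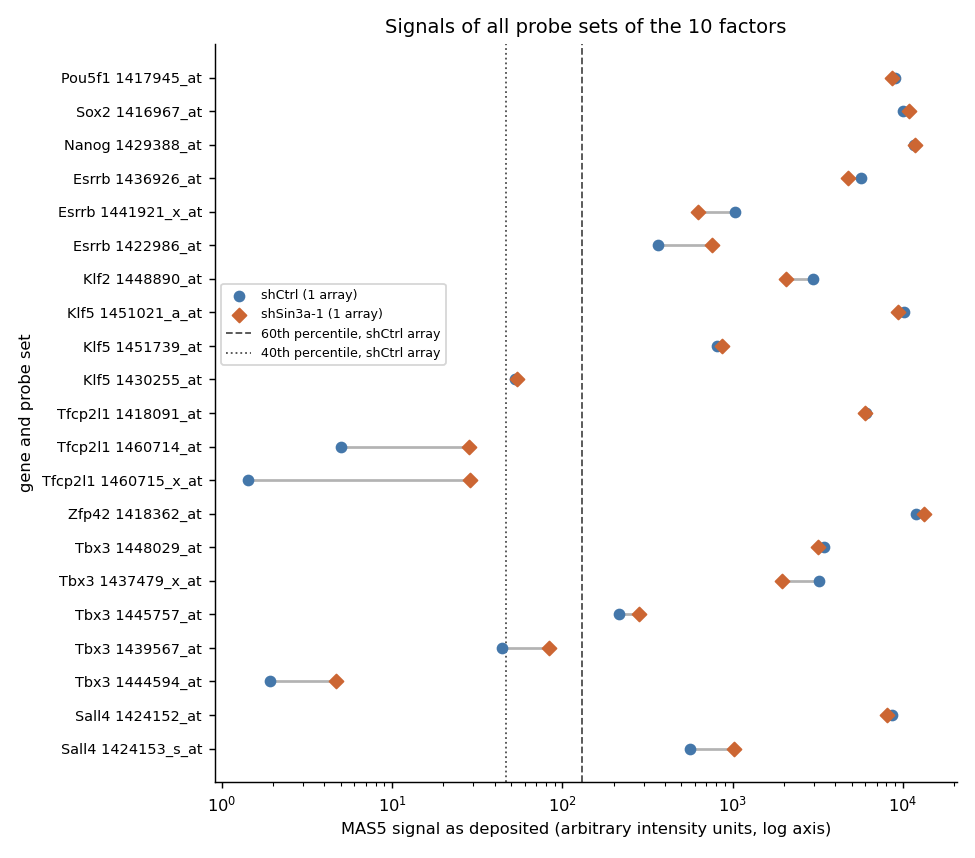
Deposited MAS5 signal of each of the 21 probe sets (log axis, arbitrary intensity units) on the shCtrl array (circles) and the shSin3a-1 array (diamonds), with the 60th and 40th percentile of the shCtrl array as dashed and dotted lines. The brightest probe set of every gene lies far to the right with its symbols close together, while the gaps are wider among dimmer probe sets such as those of Esrrb, Tbx3 and Sall4.

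The 10 factors kept similar signals after Sin3a knockdown: the brightest probe sets of all 10 were within 1.5-fold on the 2 arrays. Each of these probe sets belonged to the top 8.85% of signals on both arrays. That none of the 10 passed 2-fold stands beside 4.49% of the 9782 kept genes, and beside 0.858% of the 3030 genes whose brightest probe set reached the 90th percentile on an array, as did those of all 10 factors. At 1.5-fold the share among those 3030 bright genes was 5.38%, against none of the 10 factors. A count of none is near these shares and so is not a result particular to the 10 factors. The median log2 difference of the 10 was -0.08, beside -0.03 for all kept genes and -0.02 for the bright genes, and it was 0.03 after centring. By the deposited values 3 of the 10 lay above 0 and 7 below, beside 45.8% above and 54.2% below among all kept genes. After centring 6 of the 10 lay above 0.

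Among the core factors, Pou5f1 (single probe set 1417945_at) read 8989 on the control array and 8619 on the knockdown array, or 95.9% of the control. Its log2 difference of -0.06 turned to 0.05 after centring. Sox2, the HMG-box partner of POU5F1, had 10033 and 10874 (1416967_at, 108% of the control, 0.12). Nanog, a homeodomain factor, had 11657 and 11776 (1429388_at, 101%, 0.01). The differences of Sox2 and Nanog were above 0 under each of the 5 scalings tried (as deposited, median, 75th percentile, quantile and loess). Among the 1000 kept probe sets nearest in mean signal, the middle 95% of log2 differences ran from -0.43 to 0.37 around Pou5f1, from -0.42 to 0.35 around Sox2 and from -0.42 to 0.34 around Nanog. All 3 core factors lay inside the range of probe sets of like signal. As a yardstick for such signals, bright probe sets of the same gene differed among themselves with a pooled SD of 0.22 on the log2 scale (920 genes), which is spread between probe sets and not between samples.

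Zfp42 showed the highest value of the 10 genes in their brightest probe sets. Probe set 1418362_at read 11921 with shCtrl and 13244 with shSin3a-1, or 111% of the control, and its log2 difference of 0.15 ran from 0.14 to 0.26 over 9 alternatives (4 other scalings, 2 floors, 2 filters and an offset before log2). It too lay inside the range around its signal, -0.41 to 0.34. The promoter of this gene holds the octamer shown above, and that of Nanog the joined element. Over the 3 genes whose promoter stretches are printed, the log2 differences were 0.15 (Zfp42), 0.12 (Sox2) and 0.01 (Nanog), which is a description of 3 genes only. Pou5f1 and Esrrb, which hold the SOX core in a window, had -0.06 and -0.26 in their brightest probe sets. Whether these letters bear on the differences was not tested, and only 7 of the 10 genes had a promoter window.

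Of the factors tied to LIF and WNT signals, Tfcp2l1 differed least. Its bright probe set (1418091_at) read 6040.5 with shCtrl and 5989 with shSin3a-1, and its log2 difference of -0.01 changed sign with median centring (0.10). Both further probe sets of Tfcp2l1 were below the 40th percentile on both arrays (1460714_at with 5.03 and 28.3, 1460715_x_at with 1.43 and 28.6). They give no measured difference. Klf5 had 10100.2 and 9367 in its brightest probe set (1451021_a_at, 92.7% of the control, -0.11), and 813 and 863 in another (1451739_at, 0.09). The remaining Klf5 probe set was not kept, with 52.8 and 53.8 (1430255_at). For Klf5, all 3 probe sets thus gave similar values on both arrays.

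Klf2 had the lowest value of the 10 genes in their brightest probe sets. Its single probe set (1448890_at) had 2954 in shCtrl and 2046 in shSin3a-1, which is 69.2% of the control and a log2 difference of -0.53. Over the same 9 alternatives it ran from -0.56 to -0.42, below 0 each time and short of 1.5-fold (0.58) each time. Of its 1000 neighbours in signal 3.1% had a lower value, and their middle 95% ran from -0.55 to 0.70, so Klf2 lay just inside. With 1 probe set and 1 array a group, nothing further on the array bears on this difference.

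Esrrb, an orphan nuclear receptor, gave different answers in its 3 kept probe sets. The brightest (1436926_at) had 5680.1 in shCtrl and 4735 in shSin3a-1 (83.4% of the control, -0.26). A dimmer one, whose suffix marks sequence shared between transcripts (1441921_x_at), had 1029.8 and 625 (60.7%, -0.72). The third (1422986_at) ran the other way, with 363 in shCtrl and 761 in shSin3a-1, 2.10-fold higher (1.07). It was the only one of the 16 kept probe sets past 2-fold, which stands beside 6.06% of the 17086 kept probe sets (3.48% higher and 2.58% lower) and beside 7.75% of those under the 90th percentile, where this probe set lies. An offset of 50 added before log2 took it to 0.97, under 2-fold. The spread of 1.79 between the highest and the lowest Esrrb probe set was reached by 59 of 4413 genes with at least 2 kept probe sets (1.34%), and by 20 of the 1102 genes with 3 (1.81%). For Esrrb the array therefore gives no common direction.

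Tbx3, a T-box factor, had 2 bright probe sets that differed. One (1448029_at) had 3434 in shCtrl and 3154 in shSin3a-1 (91.8%, -0.12). The other (1437479_x_at, with the suffix for shared sequence) had 3236 and 1956 (60.5%, -0.73), outside the middle 95% of its neighbours in signal, which ran from -0.55 to 0.70. A distance of 0.60 separated them, against a median range of 0.18 in the 920 genes with at least 2 bright probe sets. A dim kept probe set (1445757_at) had 215 and 280.4 (0.38). The remaining Tbx3 probe sets were not kept: 1439567_at had 44.0, under the floor, and 83.7, and 1444594_at had 1.91 and 4.66, under the floor on both arrays.

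Sall4 had a bright probe set (1424152_at) with 8645 in shCtrl and 8071 in shSin3a-1 (93.4%, -0.10, and 0.01 after centring). Its other probe set (1424153_s_at, with a suffix for shared sequence) had 559 and 1012 and was 1.81-fold higher (0.86), from 0.80 to 0.96 over the 9 alternatives. The middle 95% of its neighbours ran from -0.75 to 0.92. The value lay at percentile 96.9 among 1000 neighbours and at 98.0 among 300.

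Ranks on each array, which no scaling factor can change, were compared as well. Zfp42 was among the top 1.05% of signals in shCtrl and the top 0.81% in shSin3a-1, Nanog among the top 1.09% and 1.00%, Sox2 among the top 1.42% and 1.14%, and Tfcp2l1 among the top 2.88% and 2.83%. These 4 ranked higher in the knockdown, the other 6 lower. In their brightest probe sets Pou5f1 (top 1.68% and 1.69%), Klf5 (1.40% and 1.49%), Sall4 (1.76% and 1.83%) and Tbx3 (5.42% and 5.95%) moved little. Esrrb went from the top 3.12% to the top 3.83%, and Klf2 from the top 6.22% to the top 8.85%, the widest step among the brightest probe sets of the 10. Among the dimmer ones, 1422986_at of Esrrb went from the top 26.6% to the top 18.1%, and 1424153_s_at of Sall4 from the top 21.3% to the top 15.0%. Smaller rises were seen for 1445757_at of Tbx3 (33.2% to 29.7%) and 1451739_at of Klf5 (17.1% to 16.8%). The others fell, 1441921_x_at of Esrrb from the top 14.7% to the top 20.3% and the bright 1437479_x_at of Tbx3 from 5.76% to 9.20%. How strongly a probe set binds also depends on its own sequence, so these ranks compare a probe set between the arrays and not the genes with each other.

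**Figure D2:**
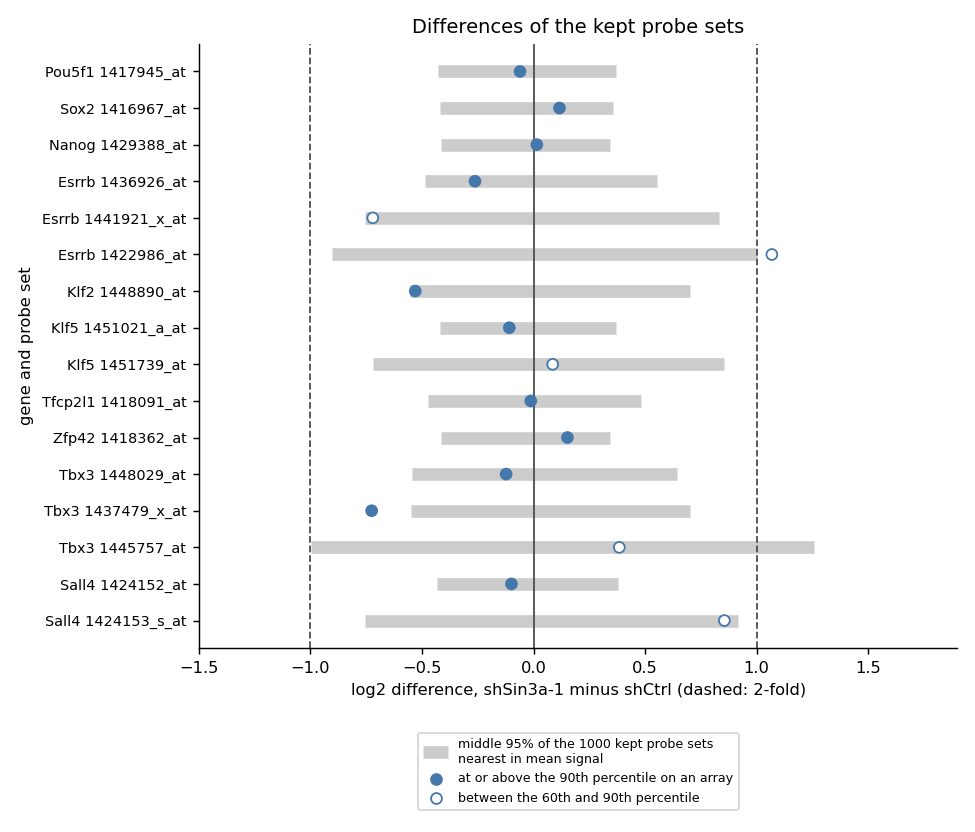
Log2 difference (shSin3a-1 minus shCtrl) of the 16 kept probe sets, filled where the probe set reached the 90th percentile on an array, over grey bars for the middle 95% of the 1000 kept probe sets nearest in mean signal. Of the 16 points, 14 lie inside their bar; 1422986_at of Esrrb lies above and 1437479_x_at of Tbx3 below.

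By the deposited values, all 4 factors with more than 1 kept probe set (Esrrb, Klf5, Tbx3 and Sall4) were split, with probe sets of opposite sign or on both sides of 2-fold. The number was 3 after median centring, where both Sall4 probe sets lay above 0, and 3 with the filter at the 75th percentile, which drops the dim probe set of Tbx3. Such splits were common on this pair of arrays: 2275 of the 4413 genes with at least 2 kept probe sets (51.6%) were split in the same sense. In each of the 4 the dimmest kept probe set had the higher log2 difference, by 1.33 for Esrrb, 0.95 for Sall4, 0.51 for Tbx3 and 0.19 for Klf5, a relation looked at after the values were seen. Over all 4413 genes the dimmest kept probe set had the higher value in 57.2%, with a median step of 0.08, and in the 1403 genes whose brightest probe set lay above and whose dimmest lay below the 90th percentile these figures were 58.3% and 0.11. Loess and quantile scaling left the direction in all 4 factors. What part dim signal or shared sequence plays in these splits was not tested.

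**Figure D3:**
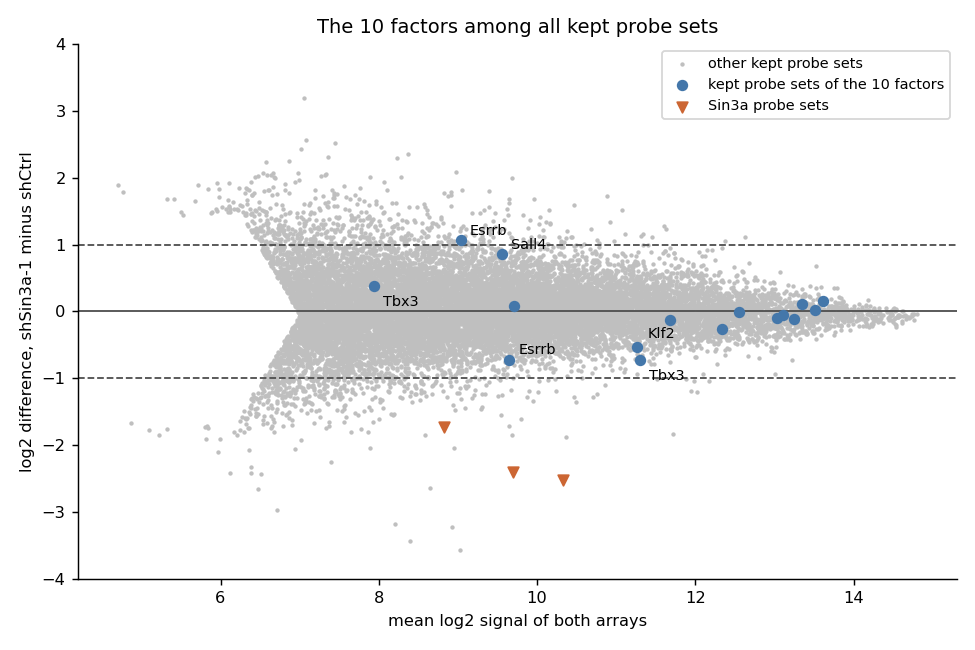
Log2 difference (shSin3a-1 minus shCtrl) against the mean log2 signal of both arrays for all 17086 kept probe sets with 1 symbol (grey), with the 16 kept probe sets of the 10 factors (circles) and the 3 of Sin3a (triangles). The bright factors lie close to 0 in the narrow right part of the cloud, the named circles are those over 0.35 in size, and the Sin3a probe sets lie between -2.52 and -1.73.

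Among other genes of the pluripotency network, 22 of 24 listed were on the array and all 22 were kept, each on both arrays. In their brightest probe sets 1 of the 22 was past 2-fold, a share near the 4.49% of all kept genes. That gene, Gbx2, is a homeobox gene downstream of LIF and read 1276 with shCtrl and 3647 with shSin3a-1 (log2 difference 1.51). The list had 8 values above 0 and 14 below, beside 54.2% of all kept genes below 0. Its median was -0.17 (-0.06 after centring), beside -0.03 for all kept genes. Klf4, the Kruppel-like factor that overlaps in function with KLF2 and KLF5, had 8700 and 10022 in its brightest probe set (0.20) and 6149 and 6678 in another (0.12). Nr0b1 (3406 and 3490.2, 0.04) and Nr5a2 (3209 and 3309, 0.04), nuclear receptors of the network, hardly differed in their brightest probe sets. At the lower end were the zinc finger gene Zscan10 (2495 and 1581, -0.66) and Prdm14 (1750.4 and 1309.5, -0.42), a PR-domain factor of naive and germ cells, each with 1 kept probe set that stayed below 0 under the 5 scalings. Of 44 kept probe sets of the list 5 were past 2-fold, 4 higher and 1 lower, in 4 genes, that of Gbx2 among them. This stands beside 6.06% of all 17086 kept probe sets (3.48% higher and 2.58% lower). Dimmer probe sets of other network genes gave different answers. Nacc1 had 1245.0 and 799.6 in its brightest probe set (-0.64), but 209.5 and 212.9 in another (1420968_at, 0.02) and 73.5 and 170.3 in the third (1433140_a_at, 1.21). Rest, a zinc finger repressor, had 4439 and 4988 in its brightest probe set (0.17), and 2 dim ones past 2-fold (1425564_at with 137.3 and 522.9, 1.93, and 1425566_at with 70.3 and 179.4, 1.35). Stat3, which carries the LIF signal, had 1804 and 2218 in its brightest probe set (0.30). Another bright Stat3 probe set had 1542 and 2317 (1426587_a_at, 0.59), and a dim one had 207.3 and 96.0 (1459961_a_at, -1.11). For Nacc1, Rest and Stat3 the array thus gives no common size. Nacc1 has no common direction either, and for Stat3 the dim probe set ran against both bright ones. The filter favours such dim values, since 1433140_a_at of Nacc1 and 1425566_at of Rest passed it only through shSin3a-1. Likewise 1459961_a_at of Stat3 passed it only through shCtrl.

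Of 22 listed downstream markers 20 were on the array and 19 were kept, none of them past 2-fold as deposited, beside 4.49% of all kept genes. Alpl, the alkaline phosphatase used to stain stem cell colonies, came closest with 1089.6 in shCtrl and 554 in shSin3a-1 (-0.98) and reached -1.01 under quantile scaling. Gdf3, a ligand of the TGF-beta family, had 4042 and 2574 (-0.65). Jam2 (3069.8 and 3945, 0.36) and Tdgf1, the co-receptor of Nodal (10914 and 13985, 0.36), had the highest values, though another Jam2 probe set (1436568_at) was lower, with 2212 and 1844 (-0.26). The dimmer kept ones of Jam2 had 0.95 (1431416_a_at), 0.80 (1419288_at) and 0.02 (1431417_at). Dppa5a (22440.1 and 22329, -0.01), Upp1 (13464 and 13299, -0.02) and Lin28a (6216 and 6345, 0.03) were close to equal in their brightest probe sets, the former pair with a sign that centring turns. A dimmer probe set of Lin28a (1421749_at) had 271.9 and 537 (0.98). The list median of -0.02 changed sign after centring (0.09) and with quantile and loess scaling (0.02 and 0.03).

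Among relatives of the 10 factors, 18 of 20 listed were on the array and 14 were kept, with a median of -0.02 (0.08 after centring). Past 2-fold were 3 of the 14, beside 4.49% of all kept genes, and each of the 3 passed the filter only through the array where it was high. Sox17, the endoderm factor of the SOX family, went from 41.1, under the floor, to 221.5, a bound of 2.24. Sall2 had 292 and 93.1 (-1.65) and Grhl2, of the family related to TFCP2L1, had 240.1 and 98.7 (-1.28). Within families, Klf3 (2273 and 2362, 0.06), Esrra (329 and 309.8, -0.09) and Yy1, which is related to ZFP42 (5193 and 4384, -0.24), were within 2-fold.

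Genes of the formative and primed states, which follow when naive cells advance toward differentiation, lay on both sides of 0. The median of those kept was -0.36 (-0.25 after centring), beside -0.03 for all kept genes. Of 13 listed genes, all on the array, 4 had the higher signal in shSin3a-1 (30.8%), beside 43.4% of all 18193 genes. Of the 12 kept, 7 passed the filter on both arrays, 4 only through shCtrl and 1 only through shSin3a-1. The filter thus favours values below 0 in this list. Of the 12, 8 lay below 0, beside 54.2% of all kept genes, and 7 did so under median, quantile and loess scaling. Past 2-fold were 3 of the 12, beside 4.49% of all kept genes, all lower. Otx2, a homeobox driver of the formative state, had 1459 in shCtrl and 443 in shSin3a-1 (-1.72); the others were Sall2 and Grhl2, given above, which passed the filter only through shCtrl. Pou3f1, the POU factor of primed cells, had 180.6 and 107.5 (-0.75) and also passed only through shCtrl. Dnmt3a was lower in every kept probe set, with -0.37 in the brightest. Its dimmer ones ran from -0.26 (1460324_at) to -1.54 (1423065_at, 500.1 and 172.2). Fgf5, a primed marker, was under the floor on both arrays (9.68 and 3.59). Lef1, which passed the filter only through shSin3a-1, had the highest value (77.3 and 149.7, 0.95), past 2-fold after centring (1.06).

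Markers of other cell types were examined beside these results, since the RNA came from whole cultures, where a smaller number of cells of a type and less RNA per cell cannot be told apart. Of 17 primitive endoderm markers listed, 16 were on the array, and 14 of these had the higher signal in shSin3a-1 (87.5%), beside 43.4% of all genes. The summed signal of their brightest probe sets, kept or not, was 5635 in shCtrl and 8190.1 in shSin3a-1. Of the 16, 13 were kept and 4 of them were past 2-fold, all higher, beside 4.49% of all kept genes. The filter favours such values here, since 5 of the 13 (Sox17, Pdgfra, Amn, Gata6 and Sox7) passed it only through shSin3a-1, among them 3 of the 4 past 2-fold. The other 8 passed on both arrays. Those past 2-fold were Sox17, Srgn (155 and 628, 2.02), Pdgfra (58.5 and 131.0, 1.16) and Amn (103 and 229.9, 1.15), while Gata4 (66.6 and 90.2), Foxa2 (21.1 and 41.7) and Hnf4a (57.9 and 14.3, lower in shSin3a-1) were not kept. Their part in the values of the 10 factors was not tested.

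Of 12 trophectoderm markers, all on the array, 5 had the higher signal in shSin3a-1, and the summed signals were 3270 and 1966. Of the 5 kept, 2 were past 2-fold, both lower and both kept on either array, beside 4.49% of all kept genes. Tfap2c had 1157 and 487 (-1.25) and Krt18 had 541 and 230.7 (-1.23), while the defining Gata3 was under the floor on both arrays and Cdx2 was not kept (8.61 and 70.0). Mesoderm and neural markers were mostly dim, with 11 of 14 on the array, 3 kept and none past 2-fold. Of the 3, 2 passed the filter only through shCtrl, among them Sox1 (234.7 and 119.6, -0.97), which differed most. The summed signals of this list were 994 and 967. Of 14 fibroblast markers 5 had the higher signal in shSin3a-1. Of the 7 kept, 3 were lower past 2-fold, again beside 4.49%: Mmp2 (-1.20), and Pdgfrb (-1.19) and Loxl1 (-1.18), which passed the filter only through shCtrl. The defining fibroblast genes Col1a1, Col3a1, Dcn, Lum and Postn lay below the floor in both groups, and Col1a2 read 32.2, under the floor, and 49.6, over it, and was not kept. The list's summed signal of 14089 and 16032 came mainly from Fn1 (7727 and 6782) and Vim (5078 and 8401). Vim was higher in each of its probe sets (0.73, 1.11 and 0.92), and 1450641_at was past 2-fold (4321 and 9348). Of the list's 12 kept probe sets 1 was 2-fold higher and 3 were 2-fold lower, beside 3.48% and 2.58% of all kept probe sets.

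**Figure D4:**
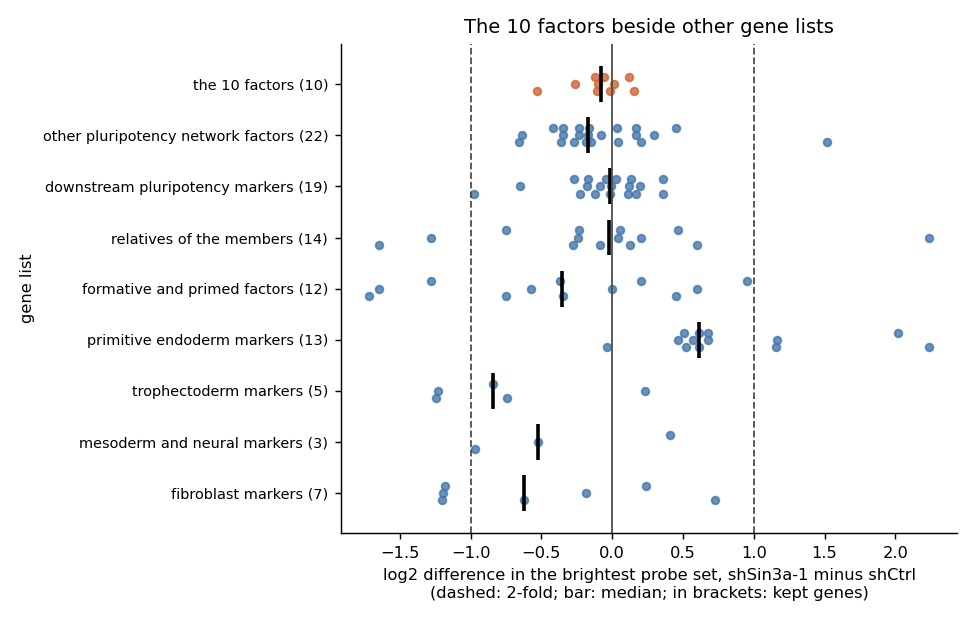
Log2 difference (shSin3a-1 minus shCtrl) in the brightest probe set of each kept gene for the 10 factors and 8 other lists, with the list median as a bar, the number of kept genes in brackets and 2-fold as dashed lines; points are shifted up and down only for legibility, and Sox17 is a bound. The 10 factors lie between -0.53 and 0.15, while other lists spread wider; in the lists of dim genes the filter favours genes that are high on 1 array.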

How the data were processed

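Biotin-labelled RNA from 1 sample per group was hybridised to Affymetrix 3' expression arrays, per the labels' protocols. The deposited values are intensity signals on a linear scale that, per the submitters' processing notes, the authors made with MAS5 and Affymetrix Expression Console, with versions and genome build not given in the sources used here. Both arrays had a trimmed mean of 500, with 2% of values left off at each end. The number of arrays limits the precision.

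The 64 control probe sets were left out, and signals were taken to log2. The deposited scaling was kept, because the array medians (6.17 and 6.06 in log2, shCtrl and shSin3a-1) lie near background while the 75th percentiles differed by 0.0077. Symbols came from the platform annotation, updated by Entrez identifier through RefSeq genes of GRCm38.p6 (34754 of 34958 matched). Each gene stands by its brightest probe set (mean log2 signal of both arrays). Counts use 2-fold as a fixed size. No gene coordinates are given, and promoter windows carry those of their own table.

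Named are Sin3a, all members with all probe sets, members of other lists past 2-fold (up to 3 a direction, otherwise the largest), and kept pluripotency genes; further list members were chosen after their values were seen. The members and lists were chosen with earlier results of these data known. The procedure was tested on simulated data. Python 3.11.15, pandas 2.3.3 and statsmodels 0.14.6 were used.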

Additional observations from a re-analysis of the deposited data

How the results depend on the processing

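The alternatives were median, 75th percentile, quantile and loess scaling, floors at the 30th and 50th percentile, filters at the 50th and 75th, an offset of 50 before log2, 300 neighbours, leaving out suffixed probe sets, averaging the probe sets of a gene, and a 1.5-fold threshold. The count of kept probe sets of the 10 factors past 2-fold (1 as reported) was 0 with the offset and 4 at 1.5-fold. The count over all kept probe sets (1035) was 314 with the filter at the 75th percentile, 446 with the offset and 3500 at 1.5-fold. Genes of the other lists past 2-fold (13) numbered 5 with that filter and 7 with the offset. Split factors (4) numbered 2 without suffixed probe sets and 3 with median centring or the filter at the 75th percentile. Leaving out suffixed probe sets left Klf5 and Sall4 with 1 kept probe set each, so they could not be split. Esrrb (-0.26 and 1.07) and Tbx3 (-0.12 and 0.38) still had more than 1, and both stayed split. With probe sets averaged 1 factor passed 2-fold, Tfcp2l1 with a bound of 1.85, which includes its probe sets under the floor; the median of the 10 was then 0.07. Among single probe sets of the factors, signs changed only for Pou5f1, Tfcp2l1 and Sall4 in their brightest ones. No paired analysis was possible because each group has 1 array. Without replicates, the spread between cultures is unknown.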
